A study of Mus musculus with 48 samples.

Results

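The genes described here are 10 members and feedback targets of the NF-kappaB pathway, measured in mouse kidney slices kept outside the body. They are the subunit genes Nfkb1, Nfkb2, Rela and Relb, the regulators Nfkbia, Nfkbiz, Bcl3 and Tnfaip3, and the target genes Birc3 and Icam1. They were chosen by symbol, as the rows of the count table whose Ensembl gene IDs carry those names. The rule uses no measured value, but the list was drawn up with earlier results of these data known. All 10 were found among the 55487 genes of the table, and all 10 passed the low-count filter in each comparison below.

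Kidneys of male mice from 2 inbred strains, C57BL/6J and DBA/2J, gave 48 libraries, which fall into 16 groups of 3. For each strain there were control slices, slices with tunicamycin and slices with cyclosporin A, each at 6 h and at 24 h, and slices under normoxia and under normoxia-hyperoxia. Tunicamycin blocks N-linked glycosylation in the endoplasmic reticulum, and cyclosporin A is an immunosuppressant that inhibits calcineurin and is toxic to the kidney. The titles call the normoxia libraries ischemia and the normoxia-hyperoxia libraries reperfusion, and give 24 h for both. How much drug was given, how much oxygen the controls had and when the oxygen was switched are not stated in the labels, and no library of the oxygen arm is a control of its own. The oxygen conditions were therefore compared with the controls of the drug arm, so that the arm and the condition cannot be told apart. The replicates are numbered as biological, without saying whether they came from separate mice, so p-values measure the spread between these samples. In bulk RNA, fewer cells of a type and less RNA per cell cannot be told apart.

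NF-kappaB is a family of dimeric transcription factors. In resting cells the IkappaB proteins hold the dimers in the cytoplasm. Signals from cytokine receptors, Toll-like receptors and injury activate the IkappaB kinase, IkappaB is degraded, and the dimers enter the nucleus and switch on inflammatory and survival genes. Among these targets are the pathway's own subunits and inhibitors, which close a feedback loop. In the kidney the pathway is known for its part in tubular and endothelial inflammation after injury.

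The sequences below show where letters matching the kappaB consensus (the motif bound by NF-kappaB dimers) lie before the start sites of genes whose values lead the results. They are RefSeq sequences on GRCm38.p6, read 5′ to 3′ along the gene's strand, with matches on either strand in capitals. Nfkbia, which encodes the inhibitor IkappaB-alpha, has a match that begins 29 bases before its start site. The consensus searched was GGGRNNYYCC, where R is A or G, Y is C or T and N is any base. Icam1, an adhesion molecule on activated endothelium, has no full match to it in its 250 bases. Its window does hold tggaaattcc, which departs from that consensus only in its first letter. The first window is chr12:55492648-55492897 on the minus strand, and the second is chr9:21015690-21015939 on the plus strand.
Nfkbia: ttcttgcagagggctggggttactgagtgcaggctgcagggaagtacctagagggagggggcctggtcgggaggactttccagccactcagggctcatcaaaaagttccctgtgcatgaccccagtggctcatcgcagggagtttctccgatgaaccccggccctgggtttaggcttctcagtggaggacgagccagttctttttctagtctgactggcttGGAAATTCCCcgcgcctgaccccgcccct
Icam1: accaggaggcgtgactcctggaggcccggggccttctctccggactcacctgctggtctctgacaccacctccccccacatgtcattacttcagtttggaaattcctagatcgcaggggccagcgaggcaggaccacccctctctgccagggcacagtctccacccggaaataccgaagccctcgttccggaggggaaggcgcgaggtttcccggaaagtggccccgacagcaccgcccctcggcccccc
In Nfkb2, overlapping matches begin 39 bases before 1 of its start sites, at chr19:46304688-46304717 on the plus strand. In Tnfaip3, matches begin 12 and 125 bases before 1 of its start sites, at chr10:19015411-19015440 and chr10:19015516-19015545 on the minus strand. A stretch of 30 bases around each is given, and Nfkb2 has further matches that are not printed. These stretches lie within the annotated bounds of their genes. Annotated exons cover 250 of the 250 bases of this Nfkb2 window and 110 of the Tnfaip3 window.
Nfkb2, 39 bases before: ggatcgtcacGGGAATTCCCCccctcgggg
Tnfaip3, 12 bases before: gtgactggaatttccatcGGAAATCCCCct
Tnfaip3, 125 bases before: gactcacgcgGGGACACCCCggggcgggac
The promoter table holds windows for 7 of the 10 genes, and 3 of these 7 (Nfkb2, Nfkbia and Tnfaip3; 42.9%) had a match in the 250 bases before a start site. Among all 27025 genes in the table the share was 8.23%. By window, 5 of 10 windows of these genes (50%) and 7.25% of all 32851 windows had a match. A match is a description of the letters and does not show that a factor binds there, and the absence of one says only that these letters are not in this window.

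Library totals ran from 5619309 to 25137581 counts, and the lowest of them, DBA/2J normoxia-hyperoxia replicate 2, lay well under the next lowest at 12384733. Leaving that library out changed no call for the 10 genes reported below. Levels are given as CPM, the count of a gene scaled to the library total. Fold changes come from edgeR's quasi-likelihood test, with TMM scaling (a trimmed mean of gene-wise log ratios sets each library's factor), and are over both strains unless a strain is named. A gene is called higher or lower where the Benjamini-Hochberg adjusted p over all genes tested is under 0.05.

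Levels of different genes are compared per kilobase of merged exon. In C57BL/6J control slices at 24 h, Nfkbia stood highest, at 153 CPM per kb. Rela, which encodes the main transactivating subunit, followed at 60.2 CPM per kb, and Nfkb2, which encodes the precursor of the non-canonical pathway, at 36.4 CPM per kb. Icam1 (22.8 CPM per kb), Tnfaip3 (21.3), Nfkbiz (18.8), Relb (17.9) and Birc3 (14.9) came next. Nfkb1, which encodes the precursor of the main DNA-binding subunit, was at 9.87 CPM per kb, and Bcl3, an atypical IkappaB that acts in the nucleus, at 9.78 CPM per kb. These values depend on the merged length of all annotated exons, 12061 bases for Nfkb1 and 2475 for Bcl3. Before that scaling they were at 119 and 24.2 CPM. In DBA/2J, Nfkbia was at 153 CPM per kb and Nfkb1 at 10.9. Exons of Nfkb2, Bcl3 and Icam1 overlap genes on the opposite strand. The strand setting of the counting is not given in the sources used here, so reads of these overlapping genes cannot be told apart.

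**Figure D1:**
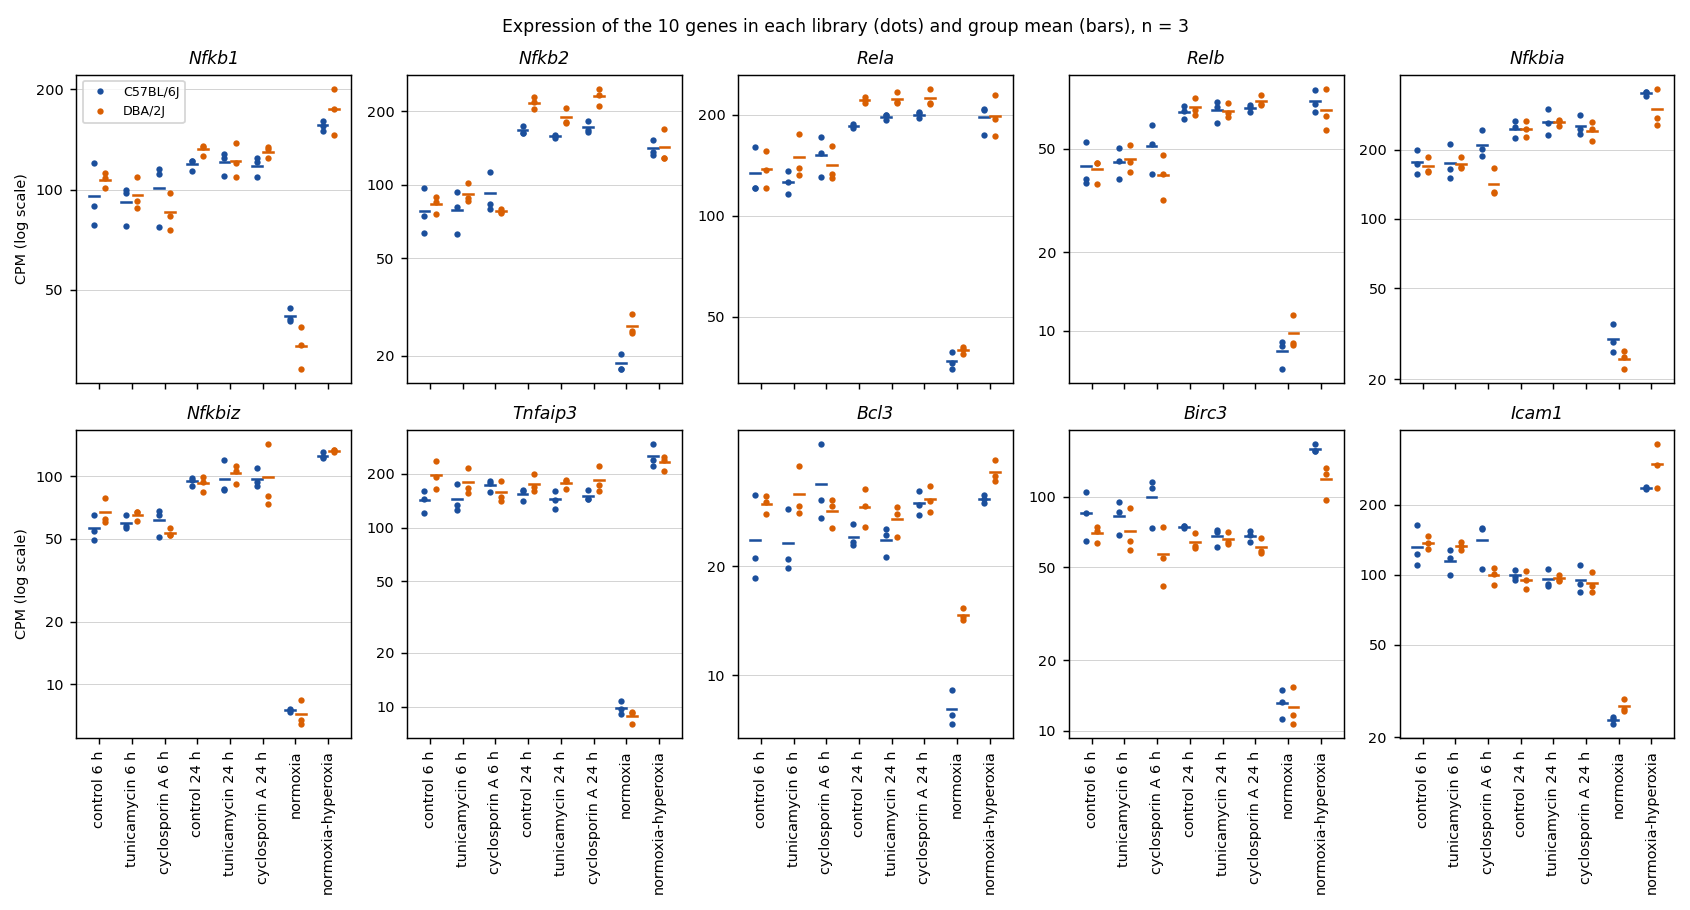
Level of each of the 10 genes in every library, in CPM on a log axis, by condition. Dots are libraries, bars are the means of 3 libraries, blue is C57BL/6J and orange is DBA/2J. In each panel the 6 normoxia libraries lie under all other libraries.

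Normoxia set the 10 genes apart from every other condition. All 10 were called lower under normoxia than in the 24 h controls, where 39.7% of all genes tested were called lower and 42.4% higher. In each of the 10 the 6 normoxia libraries lay under all 42 other libraries. The share of all genes with that separation was not counted. The median log2 fold change was -2.43 for the 10 genes, against 0.05 for all 17375 genes tested.

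Tnfaip3, which encodes a ubiquitin-editing enzyme that shuts the pathway off, fell the furthest. In the 24 h controls it was at 141, 163 and 159 CPM in C57BL/6J and at 159, 199 and 169 CPM in DBA/2J. Under normoxia it was at 9.67, 10.8 and 9.13 CPM in C57BL/6J and at 8.02, 9.17 and 9.29 CPM in DBA/2J. In both strains every normoxia library lay far below every control library. The difference was 14.6-fold (log2 fold change -3.87 ± 0.07 SE, edgeR adjusted p = 6.11e-16, lower in 6 of 6 libraries).

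Nfkbiz, which encodes an inducible nuclear IkappaB needed for a set of secondary response genes, went from 83.5 to 99.2 CPM in the 24 h controls to 6.47 to 8.41 CPM under normoxia, 10.5-fold lower (log2 fold change -3.39 ± 0.07). Nfkbia went from 224 to 267 CPM to 22.3 to 34.8 CPM, 7.51-fold lower (-2.91 ± 0.08). The edgeR adjusted p-values were 2.16e-15 for Nfkbiz and 1.50e-14 for Nfkbia. The 3 genes that fell the furthest are all regulators of the pathway. Bcl3, also a regulator, fell the least of the 10 (-1.01), and the subunit gene Nfkb2 (-2.83) lay close to Nfkbia.

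The subunits followed. Nfkb2 stood at 163 to 230 CPM in the 24 h controls and at 17.7 to 29.5 CPM under normoxia (log2 fold change -2.83 ± 0.06). Relb, the partner of the Nfkb2 product in the non-canonical pathway, stood at 65.3 to 78.6 and at 7.14 to 11.5 CPM (-2.70 ± 0.08). Rela stood at 182 to 225 and at 35 to 40.7 CPM (-2.13 ± 0.05). Each of these subunit genes showed narrow ranges that lay far apart. Nfkb1 moved least among the subunits, from 114 to 135 CPM to 29 to 44.1 CPM (-1.46 ± 0.06, edgeR adjusted p = 3.00e-12).

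Of the targets, Birc3, an inhibitor of apoptosis that also takes part in receptor signalling, was at 60.4 to 75.2 CPM in the 24 h controls and at 10.7 to 15.4 CPM under normoxia (log2 fold change -2.15 ± 0.09). Icam1 was at 86.4 to 105 and at 22.9 to 29.3 CPM (-1.66 ± 0.06). Bcl3 changed the least of the 10, from 22.9 to 32.7 CPM to 7.35 to 15.4 CPM (-1.01 ± 0.08, edgeR adjusted p = 8.62e-09). Its normoxia libraries still did not overlap any control.

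The difference did not rest on the choice of the 24 h controls. Against the 6 h controls all 10 genes were again lower under normoxia, by -1.27 (Bcl3) to -4.15 (Tnfaip3) on the log2 scale, with a median of -2.30. In that comparison 32.9% of all genes tested were called lower and 32.9% higher. Both comparisons use the same normoxia libraries. Summed cell type markers differed from the 6 h controls too. Proximal tubule markers were at 2420 to 7190 CPM at 6 h and 5180 to 14700 CPM under normoxia. Podocyte markers were at 1570 to 2300 and 496 to 1170, endothelial at 1260 to 2210 and 553 to 1520. Stromal markers were at 197 to 449 and 57.8 to 198. Distal nephron and collecting duct markers were at 7920 to 14300 and 4640 to 17600, leukocyte at 102 to 172 and 114 to 172. Their part was not tested.

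**Figure D2:**
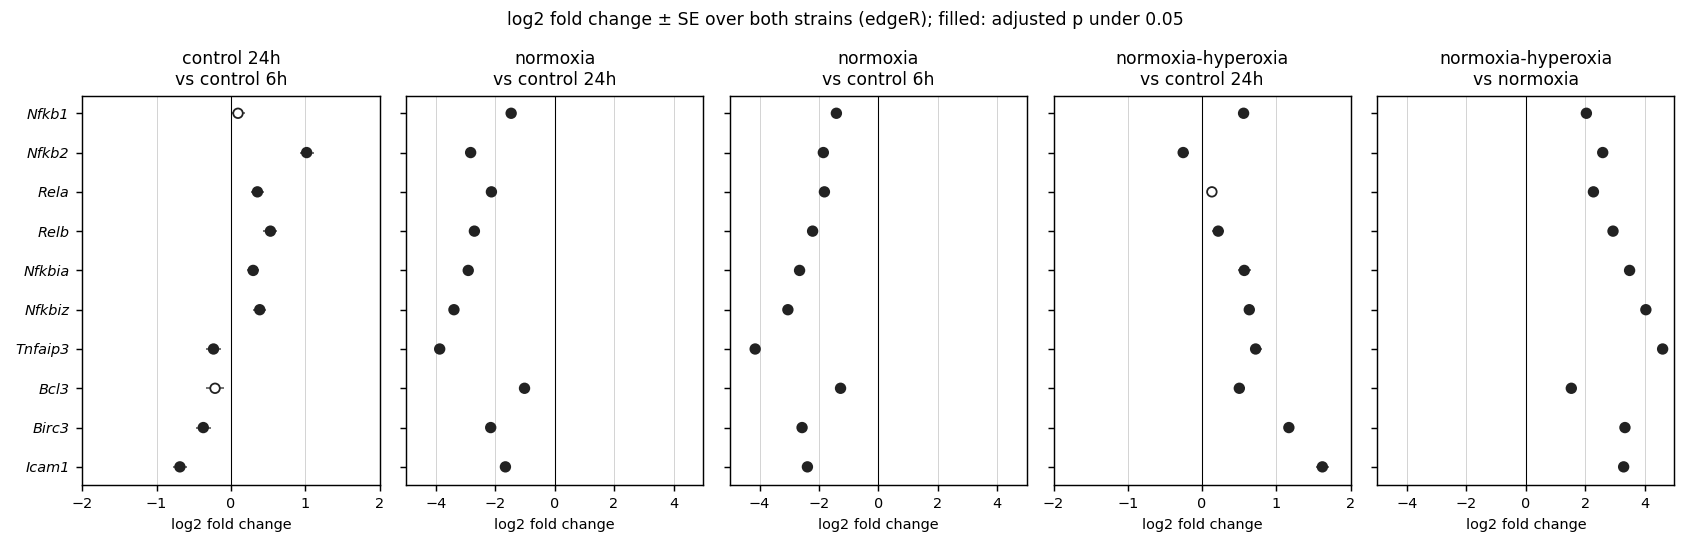
The log2 fold change of each gene over both strains, with its standard error, in the comparisons of time and oxygen. Filled points have an edgeR adjusted p under 0.05. All 10 genes lie left of 0 under normoxia, and all 10 lie right of 0 in normoxia-hyperoxia against normoxia.

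Under normoxia-hyperoxia all 10 genes stood above normoxia. Again Tnfaip3 moved most, to 294, 221 and 239 CPM in C57BL/6J and to 208, 239 and 248 CPM in DBA/2J, 24.3-fold above normoxia (log2 fold change 4.60 ± 0.09, edgeR adjusted p = 4.22e-15). Nfkbiz was 16.5-fold higher (4.04 ± 0.07), Nfkbia 11.3-fold (3.49 ± 0.10), Birc3 10.1-fold (3.34 ± 0.10) and Icam1 9.79-fold (3.29 ± 0.09). Bcl3 moved least (1.53 ± 0.07). The median over the 10 genes was 3.11, against 0.02 over all 17228 genes tested, of which 37% were called higher and 36.5% lower.

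Against the 24 h controls the same libraries gave a smaller and less uniform difference. Of the 10 genes, 8 were higher, Nfkb2 was lower and Rela was not called. Of all genes tested, 34.1% were called higher and 34.1% lower. The median was 0.56 for the 10 genes and 0.00 for all genes.

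The targets led this comparison. Icam1 was at 94.7, 98.2 and 105 CPM in C57BL/6J and at 94.6, 104 and 86.4 CPM in DBA/2J in the 24 h controls. Under normoxia-hyperoxia it was at 236, 238 and 233 CPM in C57BL/6J and at 236, 296 and 365 CPM in DBA/2J. The groups did not overlap, and the DBA/2J libraries were the more scattered. The difference was 3.07-fold (log2 fold change 1.62 ± 0.09, edgeR adjusted p = 6.62e-10, higher in 6 of 6 libraries).

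Birc3 was the other target well above its 24 h controls, at 169, 158 and 157 CPM in C57BL/6J and at 97.5, 133 and 125 CPM in DBA/2J (log2 fold change 1.17 ± 0.07, edgeR adjusted p = 1.67e-09). Both strains lay above every 24 h control, and C57BL/6J stood above DBA/2J. Birc2, a close relative of Birc3 with which it could share reads, was 1.16 higher under normoxia-hyperoxia on the log2 scale. Under normoxia its value was -0.03 and it was not called, while Birc3 fell.

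The inducible regulators rose by less. Tnfaip3 was 0.72 ± 0.08 higher on the log2 scale, Nfkbiz 0.64 ± 0.06, Nfkbia 0.57 ± 0.08 and Bcl3 0.50 ± 0.07, with edgeR adjusted p-values from 1.35e-07 (Nfkbiz) to 2.51e-05 (Nfkbia). Among the subunits Nfkb1 rose by 0.56 ± 0.07 and Nfkb2 fell by 0.25 ± 0.07 (edgeR adjusted p = 0.00567). Nfkb2 was at 163 to 230 CPM in the 24 h controls and at 129 to 170 CPM under normoxia-hyperoxia, so that the ranges overlapped. The regulators and Nfkb1 were thus above their 24 h level while Nfkb2 was below it.

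The calls for the other subunits were weak. Relb was 0.22 ± 0.08 higher on the log2 scale (edgeR adjusted p = 0.0296), with 65.3 to 78.6 CPM in the controls and 59.0 to 85.3 CPM under normoxia-hyperoxia. That call was lost on leaving out any one of C57BL/6J control 24 h replicate 2 or 3, DBA/2J control 24 h replicate 1 or 3, or replicate 3 of normoxia-hyperoxia in either strain (adjusted p from 0.0611 to 0.105). It was also lost with no scaling factor (0.05, adjusted p = 0.619) and in one fit of all 48 libraries (0.22, adjusted p = 0.0649). Rela had a value of 0.13 ± 0.07 (edgeR adjusted p = 0.0911). It passed on leaving out C57BL/6J normoxia-hyperoxia replicate 2 (adjusted p = 0.0398) or DBA/2J normoxia-hyperoxia replicate 1 (adjusted p = 0.029), and was at -0.04 with no scaling factor.

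The 10 genes did not move one way with time in culture. From 6 h to 24 h in control slices, 5 genes rose, 3 fell and 2 were not called. Of all 16962 genes tested, 34.7% were called higher and 37.4% lower, so that 8 of 10 genes called is close to the share over all genes. Cell type markers moved over the same time: all 8 proximal tubule markers (median log2 fold change -2.66), all 8 distal nephron and collecting duct markers (-1.58) and all 5 podocyte markers (-0.83) were lower at 24 h. So were 5 of 6 stromal markers (-1.04), 5 of 8 endothelial markers (-1.01, 1 higher) and 5 of the 9 leukocyte markers tested (-0.72, 2 higher). The mitochondrial share of counts was 8.05 to 16.3% at 6 h and 3.39 to 7.87% at 24 h, and the part of these in the values of the 10 genes was not tested.

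The 5 genes that rose were 3 subunit genes and the IkappaB genes Nfkbia and Nfkbiz. Nfkb2 rose most, from 63.3, 97.3 and 74.9 CPM in C57BL/6J and 76.1, 89.2 and 85.1 CPM in DBA/2J at 6 h, to 175, 163 and 163 CPM in C57BL/6J and 230, 205 and 218 CPM in DBA/2J at 24 h. No 6 h library reached a 24 h library. The rise was 2.03-fold (log2 fold change 1.02 ± 0.10, edgeR adjusted p = 2.05e-07). Relb rose by 0.53 ± 0.09 on the log2 scale, Nfkbiz by 0.39 ± 0.09, Rela by 0.36 ± 0.09 and Nfkbia by 0.30 ± 0.08.

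Icam1, Birc3 and Tnfaip3 were lower at 24 h. Icam1 was at 110 to 163 CPM at 6 h and at 86.4 to 105 CPM at 24 h, with no overlap (log2 fold change -0.69 ± 0.09, edgeR adjusted p = 8.30e-06). Birc3 fell by 0.37 ± 0.10, with ranges of 63.5 to 105 and 60.4 to 75.2 CPM that overlapped (edgeR adjusted p = 0.00354). Tnfaip3 fell by 0.23 ± 0.10 (edgeR adjusted p = 0.0387), and leaving out any one of 8 of the 12 libraries ended that call, with adjusted p-values from 0.0525 to 0.114. Those were C57BL/6J replicates 2 and 3 and DBA/2J replicates 1 and 2 at 6 h, and replicates 1 and 3 of each strain at 24 h. It was lost with DESeq2 (adjusted p = 0.0597) and in one fit of all 48 libraries (adjusted p = 0.0512) as well.

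Nfkb1 (0.10 ± 0.09) and Bcl3 (-0.21 ± 0.12) were not called in the time comparison, with edgeR adjusted p-values of 0.36 and 0.123. Nfkb1 passed without C57BL/6J control 6 h replicate 2 (0.19, adjusted p = 0.00695), the library with the highest 6 h control level of Nfkb1, Nfkb2, Rela, Relb, Nfkbia, Bcl3, Birc3 and Icam1. Bcl3 passed without C57BL/6J control 6 h replicate 1 (-0.30, adjusted p = 0.0221) and with no low-count filter (-0.23, adjusted p = 0.0391). With no scaling factor the median of all genes in this comparison moved from -0.02 to 0.19, Birc3 (-0.16) and Tnfaip3 (-0.02) were no longer called, Nfkb1 was (0.31), and Bcl3 was at 0.00.

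Under the drugs none of the 10 genes was called, at either time. At 6 h, 0% of the 16551 genes tested passed with tunicamycin and 0% of 16538 with cyclosporin A. At 24 h, 1.38% passed with tunicamycin (233 of 16905) and 0% with cyclosporin A. Before adjustment edgeR gave p under 0.05 for 281, 734, 2174 and 1107 genes in these comparisons, in the same order. Of the 10 genes that applied to 0, 0, 1 and 0, and DESeq2 also called 0 of the 10 in each.

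The values were small. With tunicamycin the 10 genes lay between -0.12 (Icam1) and 0.09 (Relb) on the log2 scale at 6 h, and between -0.14 (Nfkb2) and 0.11 (Nfkbiz) at 24 h. Nfkb2 at 24 h was the gene with an unadjusted edgeR p under 0.05 (-0.14 ± 0.05, adjusted p = 0.254). With cyclosporin A the 10 genes lay between -0.16 (Icam1) and 0.25 (Bcl3) at 6 h, and between -0.12 (Birc3) and 0.17 (Bcl3) at 24 h. Standard errors were 0.10 to 0.17 for cyclosporin A at 6 h and 0.05 to 0.15 at 24 h.

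The strains' values parted in direction with cyclosporin A at 6 h, in a comparison added after the values were seen. In C57BL/6J all 10 genes were above their controls, by 0.11 (Nfkb1) to 0.55 (Bcl3) on the log2 scale. In DBA/2J 9 were below and Rela was above (0.05), and the lowest was Icam1 (-0.44). The difference between the strains' effects was negative for all 10 genes, with a median of -0.48. None passed adjustment (edgeR adjusted p = 1 for each, 0% of all genes called, 407 genes and 4 of the 10 with an unadjusted p under 0.05), and DESeq2 called none. The 4 were Tnfaip3 (-0.61 ± 0.21), Icam1 (-0.57 ± 0.25), Nfkbia (-0.51 ± 0.20) and Nfkbiz (-0.45 ± 0.20). Leaving out any 1 library kept the median between -0.62 and -0.35. The 10 genes share libraries, so they are not 10 separate measurements of this difference.

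**Figure D3:**
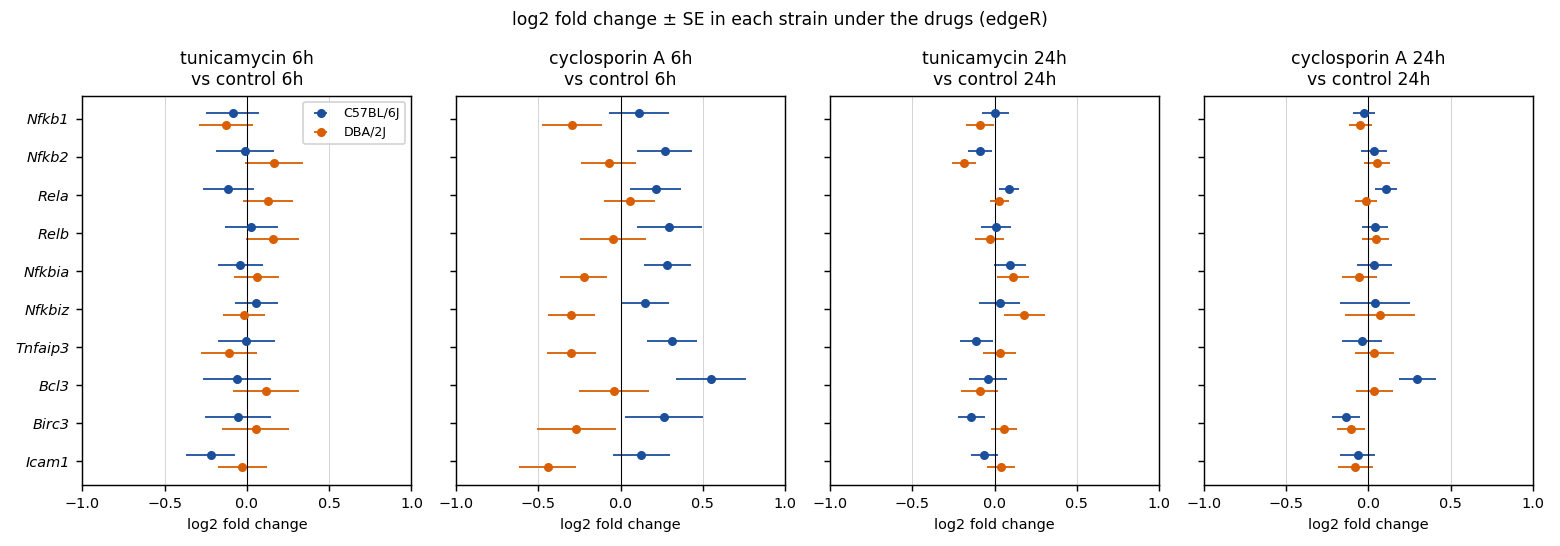
The log2 fold change of each gene under each drug, by strain (blue C57BL/6J, orange DBA/2J), with its standard error. None of the 10 genes passed edgeR's adjusted threshold, and with cyclosporin A at 6 h the C57BL/6J values lie right of the DBA/2J values for all 10.

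The strains differed in a few of the 10 genes. In control slices at 6 h Birc3 was lower in DBA/2J (-0.43 ± 0.14 on the log2 scale, edgeR adjusted p = 0.034), where 26.2% of all genes were called. The call was lost on leaving out C57BL/6J control 6 h replicate 2 or 3 or any DBA/2J control 6 h replicate (adjusted p from 0.0537 to 0.189), and without C57BL/6J replicate 2 the value itself was -0.21. It was also lost with no scaling factor (-0.28, adjusted p = 0.13) and in one fit of all 48 libraries (-0.45, adjusted p = 0.0569). Tnfaip3 was not called at 6 h (0.32 ± 0.14, edgeR adjusted p = 0.102), but passed with no scaling factor, where Birc3 did not, with no low-count filter, and without C57BL/6J control 6 h replicate 2, where Bcl3 passed as well. In control slices at 24 h edgeR called 0 of the 10, where 22.2% of all genes were called. There 1 gene, Nfkb2, had an unadjusted p under 0.05 (0.35 ± 0.13, adjusted p = 0.0715), and DESeq2 called 0.

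Under normoxia, where 46.8% of all genes differed between the strains, 2 of the 10 did. Bcl3 was at 7.79, 9.11 and 7.35 CPM in C57BL/6J and at 14.5, 15.4 and 14.2 CPM in DBA/2J (log2 fold change 0.94 ± 0.10, edgeR adjusted p = 3.85e-06). Nfkb2 was at 17.7, 17.7 and 20.4 CPM in C57BL/6J and at 25.2, 24.8 and 29.5 CPM in DBA/2J (0.58 ± 0.12, edgeR adjusted p = 0.000883). Neither gene's strain groups overlapped. Under normoxia-hyperoxia, where 25.7% of all genes differed, Birc3 was lower in DBA/2J (-0.55 ± 0.13, edgeR adjusted p = 0.00526). Cell type markers also differed between the strains. Under normoxia 7 of 8 proximal tubule markers were higher in DBA/2J (median log2 fold change 1.06), while 8 of 8 distal nephron and collecting duct markers (-0.87), 6 of 8 endothelial (-0.67), 5 of 6 stromal (-1.39), 4 of 5 podocyte (-0.79) and 3 of 10 leukocyte markers (-0.15) were lower. Under normoxia-hyperoxia 7 of 8 proximal tubule (1.61) and 8 of 10 leukocyte markers (0.81) were higher in DBA/2J, 2 of 8 distal and 1 of 6 stromal markers were lower, and no endothelial or podocyte marker was called. In the controls, proximal tubule markers were higher in DBA/2J (4 of 8 at 6 h, 8 of 8 at 24 h), as were leukocyte markers (2 and 5 of 9 tested), and endothelial (7 and 3 of 8) and podocyte markers (4 of 5 at each time) were lower. Their part in the strain values of the 10 genes was not tested.

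The interaction is the effect in DBA/2J minus that in C57BL/6J. Under normoxia Bcl3 fell by 1.37 ± 0.12 on the log2 scale in C57BL/6J and by 0.66 ± 0.11 in DBA/2J against the 24 h controls. The interaction was 0.70 ± 0.16 (edgeR adjusted p = 0.00923), and it was lost without DBA/2J control 24 h replicate 3 (0.59, adjusted p = 0.0551) and in one fit of all 48 libraries (0.62, adjusted p = 0.0797). Icam1 also passed in that comparison (0.36 ± 0.11, edgeR adjusted p = 0.0397), but kept its call in 3 of 19 alternatives. Nfkb1 was not called (-0.33 ± 0.12, edgeR adjusted p = 0.0769) but passed in 7 of 19: with no scaling factor, TMM without mitochondrial genes, DESeq2, or without any one of the 3 DBA/2J control 24 h replicates or DBA/2J normoxia replicate 3. Which genes pass thus changes with the processing. Of all genes, 17% passed this interaction.

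Between normoxia and normoxia-hyperoxia, Bcl3 rose by 1.92 ± 0.10 in C57BL/6J and by 1.14 ± 0.09 in DBA/2J (interaction -0.78 ± 0.14, edgeR adjusted p = 0.00161). Nfkb2 rose by 2.91 ± 0.12 and by 2.26 ± 0.11 (interaction -0.65 ± 0.16, edgeR adjusted p = 0.0109). The Nfkb2 interaction was lost with no scaling factor (-0.49, adjusted p = 0.0583) and in one fit of all 48 libraries (-0.56, adjusted p = 0.0525). Of all genes, 18.2% passed this interaction. With the replicate number within each strain as a block, 5 of the 10 passed it, beside 22.8% of all genes. This comparison and that of normoxia with the 24 h controls share the normoxia libraries, in which Bcl3 was high in DBA/2J. For time in culture and for normoxia-hyperoxia against the 24 h controls edgeR called 0 of the 10 interactions, where 0.69% and 1.43% of all genes passed. An unadjusted p under 0.05 was found there for 1 and 3 of the 10, and DESeq2 called 0 in both.

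The wider pathway was read from 52 other genes in 4 lists. Under normoxia against the 24 h controls, 7 of 9 upstream receptors fell and 2 rose. Tnfrsf12a, the receptor of TWEAK, fell from 505 to 561 CPM to 8.52 to 25.5 CPM (log2 fold change -4.76 ± 0.08) and Tlr4, the endotoxin receptor, by 2.17 ± 0.15, while Tnfrsf11a (1.55 ± 0.11) and Ltbr (0.34 ± 0.05) rose. The kinases and adaptors were more mixed, with 11 of 18 lower and 5 higher. Map3k14, the kinase of the non-canonical pathway, fell by 1.60 ± 0.09 and Traf3, which restrains it, by 1.43 ± 0.07, while Sharpin (0.89 ± 0.07) and Tab1 (0.57 ± 0.07) rose.

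Of the other subunits and inhibitors, 8 of 10 fell under normoxia, led by Rel (-2.36 ± 0.10), the remaining subunit of the family, and Nfkbid (-2.25 ± 0.14), another nuclear IkappaB, and Commd1 rose (0.46 ± 0.07). Of the other target genes, 14 of 15 fell. Cxcl1, a neutrophil chemokine, went from 92.7 to 198 CPM in the 24 h controls to 0.099 to 1.23 CPM (log2 fold change -7.43 ± 0.23). Il6, an inflammatory cytokine, went from 51.0 to 190 CPM to between 0 and 0.099 CPM, too few counts for a fold change to be given. Sod2, the mitochondrial superoxide dismutase, was the target that rose, from 96.7 to 159 CPM to 255 to 331 CPM (1.44 ± 0.07).

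The lists' median log2 fold changes under normoxia were -1.02 for the receptors, -0.47 for the kinases and adaptors, -1.09 for the other subunits and inhibitors and -3.30 for the other targets. For the 10 genes it was -2.43, and for all genes 0.05. In either direction 100%, 88.9%, 90% and 100% of the lists were called, beside 82% of all genes. Under normoxia-hyperoxia against the 24 h controls the medians were 0.18, -0.14, 0.31 and 0.39 in the same order of lists. There 4 receptors rose and 3 fell, 5 kinases and adaptors rose and 9 fell, 7 other subunits and inhibitors rose and 2 fell, and 8 other targets rose and 4 fell, or 77.8%, 77.8%, 90% and 80% called beside 68.2% of all genes.

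The other targets parted under normoxia-hyperoxia. Il1b, the interleukin-1 beta gene, stood at 6.22 to 15.5 CPM in the 24 h controls and at 25.0 to 63.2 CPM (log2 fold change 2.39 ± 0.14), and Irf1, an interferon-response factor, at 57 to 89.1 and at 213 to 292 CPM (1.99 ± 0.11). Ptgs2, the inducible cyclooxygenase, went down from 108 to 177 CPM to 20 to 40.1 CPM (-2.19 ± 0.11), and Il6 fell by 1.56 ± 0.21. Birc2 (1.16 ± 0.07) and Nfkbid (1.30 ± 0.11) led the subunits and inhibitors, and Tnip1 (-0.50 ± 0.05) and Otulin (-0.30 ± 0.07) fell. Among receptors Tlr2 (1.23 ± 0.12) and Tnfrsf1b (1.16 ± 0.13) rose and Tlr4 (-1.04 ± 0.14) and Tnfrsf12a (-0.60 ± 0.10) fell. Among kinases and adaptors Myd88 (0.92 ± 0.07) and Ripk1 (0.55 ± 0.07) rose and Ikbkg (-1.36 ± 0.07) and Traf3 (-0.55 ± 0.07) fell.

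With time in culture, 2 receptors rose and 2 fell, 11 kinases and adaptors rose and 4 fell, 4 other subunits and inhibitors rose and 3 fell, and 7 other targets rose and 6 fell. The shares called were 44.4%, 83.3%, 70% and 86.7% in the same order, beside 72% of all genes. Ikbkg, the regulatory subunit of the IkappaB kinase, rose by 1.55 ± 0.07 on the log2 scale and Traf3 by 0.92 ± 0.07, while Map3k14 (-0.41 ± 0.11) and Sharpin (-0.34 ± 0.08) fell. Ptgs2 (2.08 ± 0.18) and Cxcl1 (1.22 ± 0.11) rose, and Il1b (-1.64 ± 0.21) and Sele (-1.53 ± 0.30), the endothelial selectin, fell. Tlr4 (1.21 ± 0.16), Tnfrsf12a (0.92 ± 0.09), Tnip1 (0.73 ± 0.09) and Nfkbid (0.44 ± 0.11) rose, and Tnfrsf11a (-0.82 ± 0.13), Il1r1 (-0.27 ± 0.11), Rel (-0.57 ± 0.11) and Commd1 (-0.49 ± 0.07) fell.

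Against normoxia, normoxia-hyperoxia showed 7 receptors higher and 2 lower, 8 kinases and adaptors higher and 6 lower, 8 other subunits and inhibitors higher and 0 lower, and 14 other targets higher and 1 lower. That was 100%, 77.8%, 80% and 100% called, beside 73.5% of all genes. Il6 rose from between 0 and 0.099 CPM to 18.4 to 41.9 CPM, with too few counts under normoxia for a fold change. Tnfrsf12a (4.17 on the log2 scale), Tnfrsf1b (2.61), Map3k14 (1.99), Myd88 (1.54), Nfkbid (3.56), Rel (3.42) and Gadd45b (7.07), a stress-response gene, rose. Tnfrsf11a (-0.69), Ltbr (-0.50), Chuk (-0.77), Sharpin (-0.73) and Sod2 (-0.64) fell. None of the 52 genes was called with either drug at either time.

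**Figure D4:**
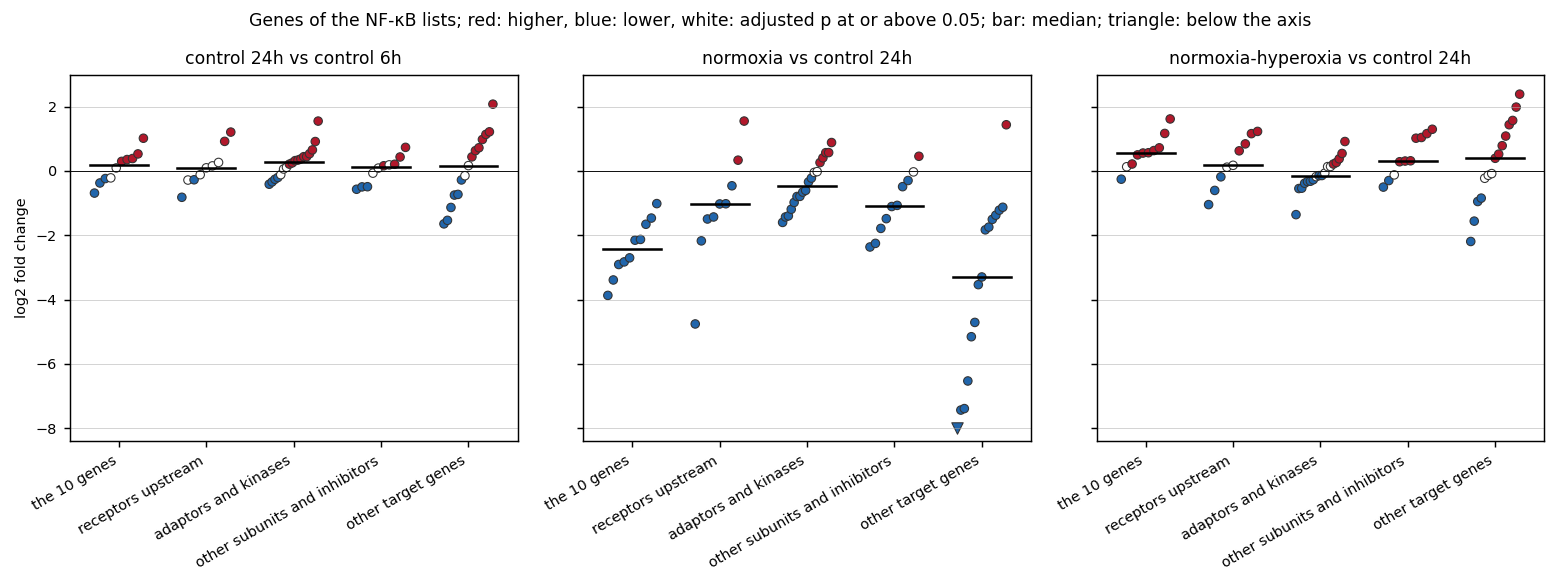
The log2 fold change of each gene of the 10 and of the 4 other lists, each dot a gene, in 3 comparisons. Red is higher and blue is lower at an edgeR adjusted p under 0.05, white is not called, bars are medians, and the triangle is Il6, which lies below the axis. Under normoxia the 10 genes and the other targets lie lowest, with medians of -2.43 and -3.30.

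Markers of kidney cell types differed between the conditions in which the 10 genes did. The summed level of 8 proximal tubule markers was 403 to 2120 CPM in the 24 h controls, 5180 to 14700 CPM under normoxia and 155 to 884 CPM under normoxia-hyperoxia. All 8 were called higher under normoxia than in the 24 h controls (median log2 fold change 3.73), and 7 of 8 lower under normoxia-hyperoxia (median -1.14). The tubule markers were thus detected in each condition, as the label kidney has it. The leukocyte markers (10 genes) summed to 129 to 246, 114 to 172 and 133 to 319 CPM in the same order. Single leukocyte markers were mixed: under normoxia 7 were called higher and 2 lower (median 1.20), and under normoxia-hyperoxia 8 higher and 2 lower (median 1.30), each against the 24 h controls. The endothelial markers (8 genes) summed to 819 to 1680, 553 to 1520 and 1640 to 2390 CPM, with 4 called higher and 3 lower under normoxia (median 0.40) and 5 higher and 1 lower under normoxia-hyperoxia (median 1.21). Of 5 podocyte markers, whose sums were 751 to 1690, 496 to 1170 and 1220 to 2300 CPM, 4 were lower under normoxia (median -0.42) and 4 higher under normoxia-hyperoxia (median 0.91). Of 8 distal nephron and collecting duct markers, 7 were higher under normoxia and 8 under normoxia-hyperoxia, with sums of 2530 to 5760, 4640 to 17600 and 13300 to 21500 CPM. Of 6 stromal markers, 2 were lower under normoxia, and 3 were higher and 1 lower under normoxia-hyperoxia, with sums of 140 to 201, 57.8 to 198 and 137 to 241 CPM. Between normoxia-hyperoxia and normoxia, all 8 proximal tubule markers were lower (median -4.81), while 5 of 5 podocyte (1.20), 7 of 8 endothelial (0.91), 6 of 8 distal (0.67), 4 of 6 stromal (0.60) and 6 of 10 leukocyte markers (0.48) were higher. The share of counts from the mitochondrial genome was 3.39 to 7.87%, 11.8 to 25.6% and 11 to 17.4%. The part of these in the values of the 10 genes was not tested.

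The 10 genes were correlated over the 16 group means. The median Pearson r over their 45 pairs was 0.913, from 0.618 (Nfkb2 and Icam1) to 0.994 (Rela and Relb). The 2 normoxia groups lie far from the rest: over the 14 other groups the median was 0.613 and the range ran from -0.29 to 0.94, with 5 pairs negative. These are descriptions of group means, which do not count as independent samples.

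The genes whose profile over the 16 groups was most like the mean of the 10 were Bach1 (r = 0.997), a heme-regulated repressor, Hivep2 (0.992), a zinc finger factor, Ier5 (0.988), Zc3h12a (0.988), a ribonuclease that degrades inflammatory mRNAs, and Emp1 (0.986), among 12321 genes searched. The 2 normoxia groups weigh on these values too. Over the 14 other groups, with no new search and chosen after the values were seen, r to the mean of the 10 was 0.96 for Bach1, 0.981 for Hivep2, 0.911 for Ier5, 0.938 for Zc3h12a and 0.83 for Emp1. Single genes had other nearest profiles. Nfkb1 was nearest to Map3k8 (0.983), Nfkb2 to Litaf (0.986), Rela to Lypd3 (0.993), Relb to Trio (0.996) and Nfkbia to Rabgef1 (0.993). Nfkbiz was nearest to Hivep2 (0.99), Tnfaip3 to Rhou (0.994), Bcl3 to Trim47 (0.949), Birc3 to Itprid2 (0.993) and Icam1 to Rcan1 (0.985), a calcineurin inhibitor. Over the 14 other groups these r ran from 0.824 (Bcl3 and Trim47) to 0.978 (Nfkb2 and Litaf).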

How the data were processed

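Whole-number counts per gene were deposited by the authors for 48 libraries, without normalization. Per the labels' protocols, the libraries are stranded mRNA libraries (Illumina ligation kit) from RNA purified with Qiagen midi columns. The submitters' processing notes name bcl2fastq 2.20.0, FastQC 0.11.8, STAR 2.7.9a, featureCounts 1.5.1 and GRCm38. Their settings and the annotation release are not given in the sources used here. Symbols matched 55141 of 55487 gene IDs.

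Groups came from the labels. Each comparison was fitted with edgeR 4.0.16 (R 4.3.3, limma 3.58.1) on its 12 libraries in 4 groups, with TMM scaling, edgeR's low-count filter and a robust quasi-likelihood test with Benjamini-Hochberg adjustment over all genes tested. The code was tested on simulated data. Library pairs of 1 group differed by more than sampling noise (chi-square per gene 6.12 or more in 48 pairs). The genes and lists were chosen with earlier results of these data known. Text names the 10 genes, for each list up to 2 called genes with the largest rise and fall (Il6 by its levels where its counts give no fold), and the genes with the most similar profiles. Alternatives were other scalings, no filter, DESeq2 1.42.0, a fit of all 48 libraries, leaving out each library and a replicate block.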

Additional observations from a re-analysis of the deposited data

Results flagged for a closer look

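In 4 cases the effect of an oxygen condition on one of the 10 genes differed between the strains by the interaction test of edgeR, 2 of the 10 genes in each of 2 comparisons, where 17% and 18.2% of all genes passed. Bcl3 under normoxia against the 24 h controls had an interaction of 0.70 on the log2 scale (adjusted p = 0.00923, lost in 2 of 19 alternatives), and Icam1 in the same comparison had 0.36 (adjusted p = 0.0397), lost in 16 of 19 alternatives. Between normoxia-hyperoxia and normoxia, Nfkb2 had -0.65 (adjusted p = 0.0109, lost in 2 of 19 alternatives) and Bcl3 had -0.78 (adjusted p = 0.00161). Bcl3 was higher in DBA/2J under normoxia in 3 of 3 libraries, and both of its interactions use those libraries.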

How the results depend on the processing

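In the 5 comparisons of time and oxygen, the 10 genes had 950 fold changes under the alternatives, of which 922 kept their direction and their side of the threshold, 20 lost the call, 6 gained it and 2 reversed. For the 8 called strain differences and interactions, 121 of 148 values kept the call and 27 lost it, and among genes not called there 34 of 1332 values gained one. Beside those named above, these were Nfkb2 (3) and Birc3 (1) for strain at 24 h, Nfkb1 (4), Icam1 (2) and Nfkbia (1) under normoxia, Icam1 (2), Nfkbia (2) and Relb (1) under normoxia-hyperoxia, Nfkb2 (1) for the interaction of normoxia-hyperoxia against the 24 h controls, and Birc3 (3), Relb (2) and Nfkb1 (1) against normoxia, with the number of alternatives in parentheses. The reversals came with no scaling factor, Bcl3 in the time comparison (0.00025) and Rela under normoxia-hyperoxia against the 24 h controls (-0.036). All 10 genes stayed lower under normoxia and higher under normoxia-hyperoxia against normoxia in all 19 alternatives, with 10 called each time. With no low-count filter, the count called went to 2 for strain in 6 h controls, 1 for the normoxia interaction, 4 for strain under normoxia and 2 for strain under normoxia-hyperoxia. With no scaling factor it went to 1 for strain in 24 h controls, 1 for the interaction of normoxia-hyperoxia against normoxia and 2 for strain under normoxia-hyperoxia. With RLE factors the normoxia interaction went to 1. One fit of all 48 libraries gave 0 for strain at 6 h, 0 for the normoxia interaction and 1 for the normoxia-hyperoxia against normoxia interaction. With the replicate block these interactions had 1 and 5 genes called, beside 15.4% and 22.8% of all genes (Nfkb1, Relb and Birc3 were added in the second), and other member counts stayed within 1.5 times. Pairing was taken as shown only where same-numbered libraries deviated together with r over 0.1 in all 6 pairs of a comparison, and none of the 9 reached that. Within a single strain every pair was over 0.1 in some comparisons. This held in DBA/2J for normoxia-hyperoxia against normoxia (0.245, 0.106 and 0.209), tunicamycin at 24 h and normoxia against the 6 h controls. In C57BL/6J it held for normoxia-hyperoxia against the 24 h controls (0.118, 0.115 and 0.14). The r ran from -0.101 to 0.302, and from -0.0248 to 0.245 for normoxia-hyperoxia against normoxia. All 6 were above 0 in 2 comparisons, and 4 to 12 of 12 libraries correlated best with their own number, 9 for normoxia-hyperoxia against normoxia and 6 for normoxia against the 24 h controls, so that pairing is neither stated in the labels nor settled by the data. Leaving out 1 library gave 0 to 2 for strain at 6 h, 0 to 2 at 24 h, 2 to 4 under normoxia and 1 to 3 under normoxia-hyperoxia, 1 to 2 for the normoxia interaction and 0 to 1 for the interaction of normoxia-hyperoxia against the 24 h controls. The median correlation was 0.562 by Spearman's rho and 0.613 over the 14 groups other than normoxia, a choice made after seeing the data. Over all genes, the count called ranged from 78 to 526 for tunicamycin at 24 h (233 as reported), up to 45 and 22 for cyclosporin A at 6 h and 24 h (0), 46 to 817 for the time interaction (117), 103 to 1156 for the normoxia-hyperoxia interaction against the 24 h controls (247) and 1860 to 3496 for the normoxia interaction (2956). The causes were not tested.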
